A study of Mus musculus with 9 samples.

Results

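The cytosolic ribosomal protein genes, which encode the protein part of the ribosome outside mitochondria, were followed in 9 mouse tumours. Genes were chosen by name, as Rpl or Rps followed by a digit together with Rplp0, Rplp1, Rplp2 and Rpsa. Kinase genes named Rps6k and names containing -ps were left out, and a total of at least 90 counts over the 9 tumours was required. Of 86 names, Rpl10l (0 counts) and Rpl39l (42 counts) fell short, which left 84 genes of the 34745 in the deposited table, and all 84 passed the filter on low counts. They comprise 46 genes of the large subunit, 31 of the small subunit, the 6 paralogues Rpl3l, Rpl7l1, Rpl22l1, Rpl36al, Rps4l and Rps27l, and Rps19bp1, which is named after its partner Rps19 and is no subunit. The retrogenes Rpl37rt and Rps27rt, copies made from messenger RNA, are reported apart.

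The tumours grew in the right flank of male wild-type C57BL/6 mice from injected cells of LLC (Lewis lung carcinoma), a mouse line that the labels call lung adenocarcinoma. The labels give the hosts' age as 6 to 8 without a unit. At about 100 mm3 the mice were randomised, 3 tumours to a group, and all dosing was into the peritoneum. The isotype group received a control antibody (10 mg/kg), although its libraries are titled Blank. The anti-PDL1 group received an antibody against PDL1 (10 mg/kg), a ligand that restrains T cells. The BTZ+anti-PDL1 group received that antibody with BTZ (bortezomib, 0.5 mg/kg), an inhibitor of the proteasome, the protease complex that degrades most short-lived cell proteins. No group had BTZ alone, so all tumours but the isotype ones carry the antibody. Each sample is a piece of tumour with host cells in it, and in such bulk RNA fewer cells of a type and less RNA per cell cannot be told apart.

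A ribosome joins a small subunit, which decodes the message, to a large subunit, which forms the peptide bond. Nearly every subunit protein is present once per ribosome, and its messenger RNA is among the most abundant of a growing cell. These messages begin with a terminal oligopyrimidine tract, an unbroken run of C and T in the gene, through which the growth kinase mTORC1 controls their translation. Subunit proteins left without a ribosome are degraded by the proteasome. Mammalian genomes also hold many processed copies of these genes, most of them without a known function, and short reads from the messenger RNA can match gene and copy equally well.

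The copies come first, because they bear on every level given here. The coding sequence of Rps27, a zinc-finger protein of the small subunit, is printed because it was letter for letter the same in the retrogene Rps27rt (252 bases without the stop codon, 0 differences). Rps27 lies at chr3:90212522-90213651 on the minus strand and Rps27rt at chr9:114982371-114982740 on the minus strand (mm10, as the deposited table gives them). Transcript sequences are from GENCODE M21, which is on the same build.

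Rps27 and Rps27rt: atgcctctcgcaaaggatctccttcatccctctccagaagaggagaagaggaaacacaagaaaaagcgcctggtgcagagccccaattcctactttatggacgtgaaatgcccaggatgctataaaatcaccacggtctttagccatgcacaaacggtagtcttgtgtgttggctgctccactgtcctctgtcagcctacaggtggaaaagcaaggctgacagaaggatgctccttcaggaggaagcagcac

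The gene row of Rps27 held 328 counts over the 9 tumours and the row of Rps27rt held 40340, 123 times as many. Rpl35, a protein at the exit of the tunnel for the nascent chain, is shown beside its copy Gm2000, because it had the smallest p of all 84 genes against isotype. Rpl35 lies at chr2:39001580-39005624 on the minus strand and Gm2000 at chr1:156366040-156366484 on the plus strand. Coding bases 61 to 180 of 369 are printed for each, and the whole differs at 1 place, given in capitals and written C117T (base in Rpl35, position counted from 1 at the A of the start codon, base in Gm2000), in the third place of codon 39.

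Rpl35: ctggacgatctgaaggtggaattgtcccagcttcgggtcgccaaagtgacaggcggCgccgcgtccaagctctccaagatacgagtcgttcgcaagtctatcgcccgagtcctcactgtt
Gm2000: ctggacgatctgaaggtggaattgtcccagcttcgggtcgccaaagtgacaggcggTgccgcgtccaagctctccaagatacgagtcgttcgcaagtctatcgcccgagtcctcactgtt

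Rpl35 held 60501 counts and Gm2000 held 44741. Rpl23a, a large-subunit protein near the tunnel exit, differed from its pseudogene Rpl23a-ps3 by A116T alone over 468 coding bases, and held 910 counts against 87847 on the copy.

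Of the 84 genes, 80 had at least 1 annotated copy of 90% or more identity over at least 70% of the coding sequence. A copy row with counts, named Gm and a number, -ps or rt, was found for 38 (60 such rows in all). Matching rows with other names were left out, the largest with 31641 counts beside 56729 on its match Rplp2. How many of these counts stem from Rplp2 was not tested. For 11 genes the copies held more counts than the gene, and for 8 of these more than 5 times as many. Besides Rps27 and Rpl23a, these included Rpl9 (1347 counts, against 42030 on Rpl9-ps6), Rpl12 (10325 against 193549 on Gm10275), Rpl11 (2302 against 42117 on Gm10036), Rpl5 (16444 against 281452 on Gm15500) and Rpl27 (3682 against 54761 on Rpl27-ps3). Rpl5 and Rpl11 form the particle with 5S RNA that can bind the p53 inhibitor MDM2, and both are among these 8. How far the split moved between tumours differed by pair. The share of the Rpl5 and Gm15500 counts placed on Rpl5 ran from 5.13% to 6.07%, and that of Rplp0 with Gm8730 from 69.3% to 70.2%. Rps18 with Gm10260 ran from 58.3% to 73.3%, Rps12 with Rps12-ps3 from 50.2% to 61.3%, Rpl39 with Rpl39-ps from 35.2% to 45.1% and Rps27 with Rps27rt from 0.474% to 1.05%. How the authors' counting shared out reads that match both rows is not given in the sources used here, so the counts of these genes are uncertain as levels. The copies named here were chosen after their values were seen.

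**Figure D1:**
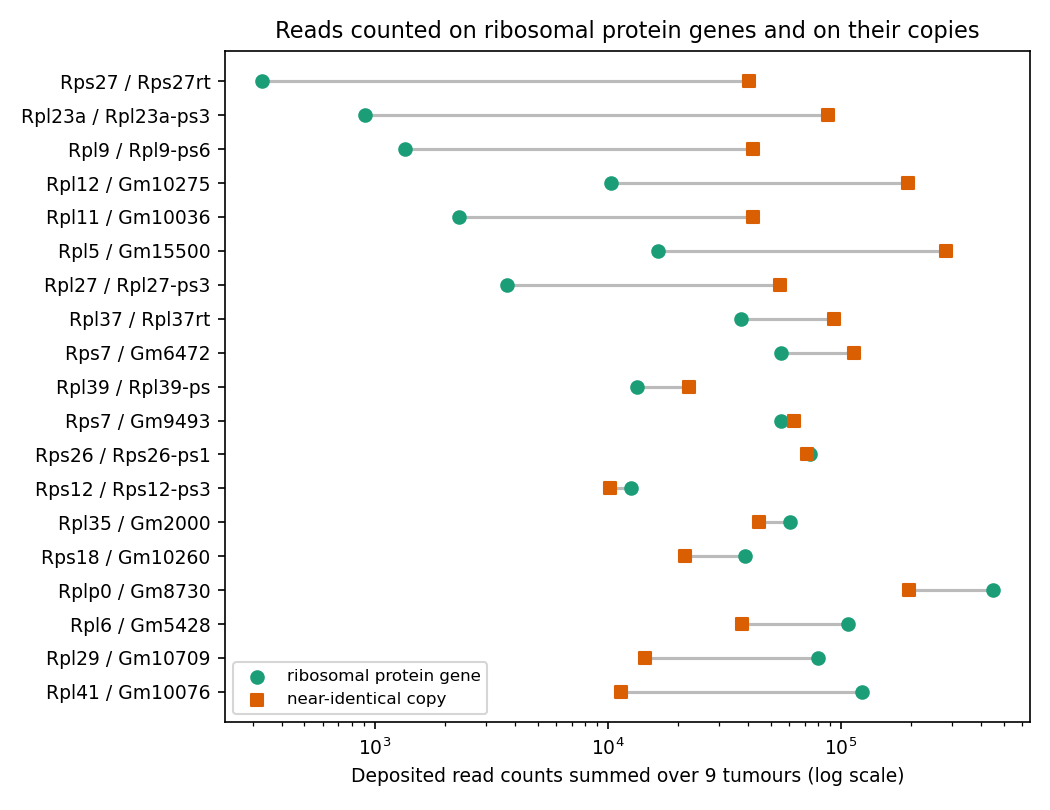
Read counts summed over the 9 tumours (log scale) for ribosomal protein genes (circles) and for near-identical copies with at least 10000 counts (squares), ordered by the ratio of copy to gene. In the upper 11 of 19 pairs the copy holds more counts, up to 40340 against 328 for Rps27rt and Rps27.

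Start sites are shown for 7 of the genes with small p values in the comparisons below and for Rps6, the substrate of the S6 kinases, a choice made after the values were seen. Promoters from the RefSeq table (GRCm38.p6, which is mm10) were found for 63 of the 84 genes. The first entry per gene was used, and its annotated start was not checked against the reads. A run missing below is thus missing at that annotated start only. Each window below holds 15 bases before the start and 15 from it on, and capitals mark an unbroken C/T run of 6 or more that overlaps bases -2 to +6. The windows are chr2:39005117-39005146 (minus strand) for Rpl35, chr7:109519180-109519209 (plus) for Rpl27a, chr7:141447636-141447665 (plus) for Rplp2, chr4:86857353-86857382 (minus) for Rps6, chr3:130730384-130730413 (minus) for Rpl34, chr16:33056438-33056467 (plus) for Rpl35a, chr10:23787195-23787224 (minus) for Rps12 and chrX:134585639-134585668 (plus) for Rpl36a.

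Rpl35: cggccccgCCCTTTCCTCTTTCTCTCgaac
Rpl27a: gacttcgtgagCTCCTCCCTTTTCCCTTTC
Rplp2: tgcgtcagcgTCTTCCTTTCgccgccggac
Rps6: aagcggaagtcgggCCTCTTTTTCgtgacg
Rpl34: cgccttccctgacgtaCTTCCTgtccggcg
Rpl35a: gcggggcgtgcgtcccacaaggccgcgcgg
Rps12: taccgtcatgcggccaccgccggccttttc
Rpl36a: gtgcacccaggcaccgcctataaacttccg

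The first 4 windows hold a run of at least 10 bases, counted over the whole promoter sequence, and that of Rpl34 holds one of 6. In Rpl35a, Rps12 and Rpl36a no run of 6 or more overlaps bases -2 to +6, and the Rps12 window ends in a C/T run that begins beyond them. A run of at least 8 was found in 19 of 63 genes (30.2%) against 8% of the 27025 promoters in the table, and one of at least 6 in 25 (39.7%) against 17.6%. On either strand of the promoter (250 bases before to 50 after the start), CCGGAAG, the core bound by ETS factors such as GABP, was in 24 of 63 (38.1%) against 9.1%. AAGATGG, part of the motif of YY1, was in 9 (14.3%) against 6.5%, and TATAAA in 6 (9.5%) against 14.2%. Against isotype, the 19 genes with a run of at least 8 had a median log2 fold change of -0.14 in the anti-PDL1 tumours (17 lower), and the other 44 had -0.13 (42 lower).

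Within the tumours these genes took between 3.13% and 3.54% of all counts. The isotype tumours had 3.53%, 3.54% and 3.30% (mean 3.46% ± 0.134, SD, n = 3), the anti-PDL1 tumours 3.37%, 3.13% and 3.22% (3.24% ± 0.121) and the BTZ+anti-PDL1 tumours 3.46%, 3.26% and 3.31% (3.35% ± 0.102). The groups overlap, since isotype replicate 3 lies below anti-PDL1 replicate 1. The copies added 0.893%, 0.847% and 0.88% on average, which left the order of the groups as it was (4.35%, 4.08% and 4.23%). Counted gene by gene, isotype replicate 2 held the highest value of the 9 tumours for 27 of the 84 genes and isotype replicate 1 for 17, whereas each anti-PDL1 tumour held it for 1 gene. BTZ+anti-PDL1 replicate 1 held it for 22 genes, and replicates 2 and 3 of that group for 1 and 5.

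**Figure D2:**
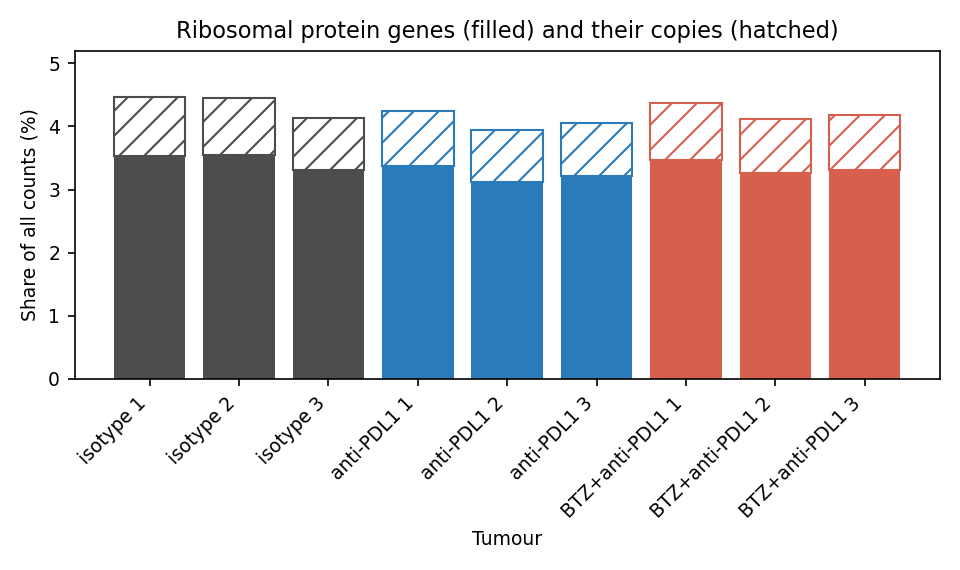
Percent of all counts in each tumour on the 84 ribosomal protein genes (filled) and on their near-identical copies (hatched), coloured by group. Filled bars run from 3.13% to 3.54% and the groups overlap.

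Column totals ran from 18516282 to 21509953 counts. Tumours also differed in host tissue within groups. The summed level of 16 skeletal muscle markers (16 of 16 found) ran from 6.08 to 3280 CPM with isotype, from 126 to 1250 CPM with anti-PDL1 and from 5.62 to 973 CPM in the BTZ+anti-PDL1 tumours, where CPM, the count relative to the library total, is taken after TMM scaling. Up to 9 of the 16 were at 0 in a single tumour (isotype replicate 1). Its highest values were in isotype replicate 3, anti-PDL1 replicate 1 and BTZ+anti-PDL1 replicate 1. The first of these had the lowest ribosomal protein share of its group, and the other two the highest of theirs. The 11 T cell markers summed to 6.58 CPM in isotype replicate 2, the tumour with the most ribosomal protein maxima, and to between 20.3 and 42.8 CPM in the other 8. Macrophage and monocyte markers (10 of 10 found) were also lowest in that tumour, with 843 CPM against 1250 to 1700 in the other 8. Red blood cell markers (6 of 6 found) summed to 136, 250 and 268 CPM with isotype against 88.7, 45.2 and 58.1 with anti-PDL1, with no overlap, and to 196, 28.9 and 42.1 with the combination. Fibroblast markers (8 of 8) ran from 8970 to 11900 CPM with anti-PDL1 and from 7900 to 8120 with the combination, and endothelial markers (8 of 8) from 322 to 378 and from 263 to 307, neither overlapping between these groups. The part of these cell types in the results was not tested. Of the epithelial and lung markers looked at, Krt18 had 56.6 to 113 CPM, Krt8 3.64 to 26.5, Cdh1 1.43 to 9.29 and the lung protease Napsa 4.16 to 8.95, while Epcam reached 0.247 CPM at most and Nkx2-1 and Sftpc had 0 counts in all 9 tumours.

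Levels per length were spread widely although the proteins enter the ribosome in equal numbers. Over the 77 subunit genes, the deposited FPKM (counts scaled to gene length and library total, by the authors) averaged between 1757 for Rpl8, of the large subunit, and 0.643 for Rps27. Rpl8 ran from 1625 to 1903 FPKM over the 9 tumours. Rpl4 had 1713, the stalk protein Rplp1 1699, Rps15 1405 and the laminin-binding protein Rpsa 1319, whereas Rps13 had 1.12 and Rpl9 had 0.695. Lowest of all 84 was Rpl3l, the striated muscle paralogue of Rpl3, with 0.461. The length by which the authors divided was set against 1 annotated transcript per gene. This was the shortest coding transcript that the annotation marks as principal, or the longest transcript where there was none. The authors' length exceeded it more than 2-fold in 55 of 84 genes and more than 5-fold in 23, with a median ratio of 3.35. A longer choice of transcript would lower these ratios. In CPM per kilobase of that transcript, the middle 80% of subunit genes lay between 16.8 and 1310 (median 348). With the counted copies added it lay between 27.5 and 1450 (median 528), and the number of subunit genes under 50 went from 17 to 10. Rps23, of the decoding centre, was lowest on both scales (4.49 and 4.62). The highest was Rps15 (2350) without the copies and Rplp0, the base of the stalk, with them (2680). For 30 of the 84 genes there was an annotated copy of at least 98% identity but no counted copy with such a name, so nothing was added. Whether reads of these genes were placed elsewhere or lost was not tested.

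The spread between replicates was narrow for most of these genes. The within-group SD of log2 CPM had a median of 0.118 over the 84 genes and 0.17 over the 14506 genes tested, and it exceeded 0.25 in 9 of 84 against 4965 of 14506. Among these 9 were Rpl3l, Rps28, Rpl22 and Rps4l, with means of 0.772, 79.5, 163 and 3.47 CPM over the 9 tumours. The 84 genes and all genes tested were not matched for level. Rpl3l had 4.81 CPM in isotype replicate 3, the tumour richest in muscle markers, and 0 in the other two of its group. It had 0.65, 0.102 and 0.234 CPM after anti-PDL1 and 1.15, 0 and 0 in the BTZ+anti-PDL1 tumours. Rps28, of the small-subunit head, had 47.9 CPM in anti-PDL1 replicate 2 and 44.96 CPM in BTZ+anti-PDL1 replicate 3 against 66.5 to 99.3 in the other 7 (chosen after its values were seen). Rpl22, which also binds a viral RNA, had 84.8 CPM in anti-PDL1 replicate 2 and 144 to 201 in the other 8.

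**Figure D3:**
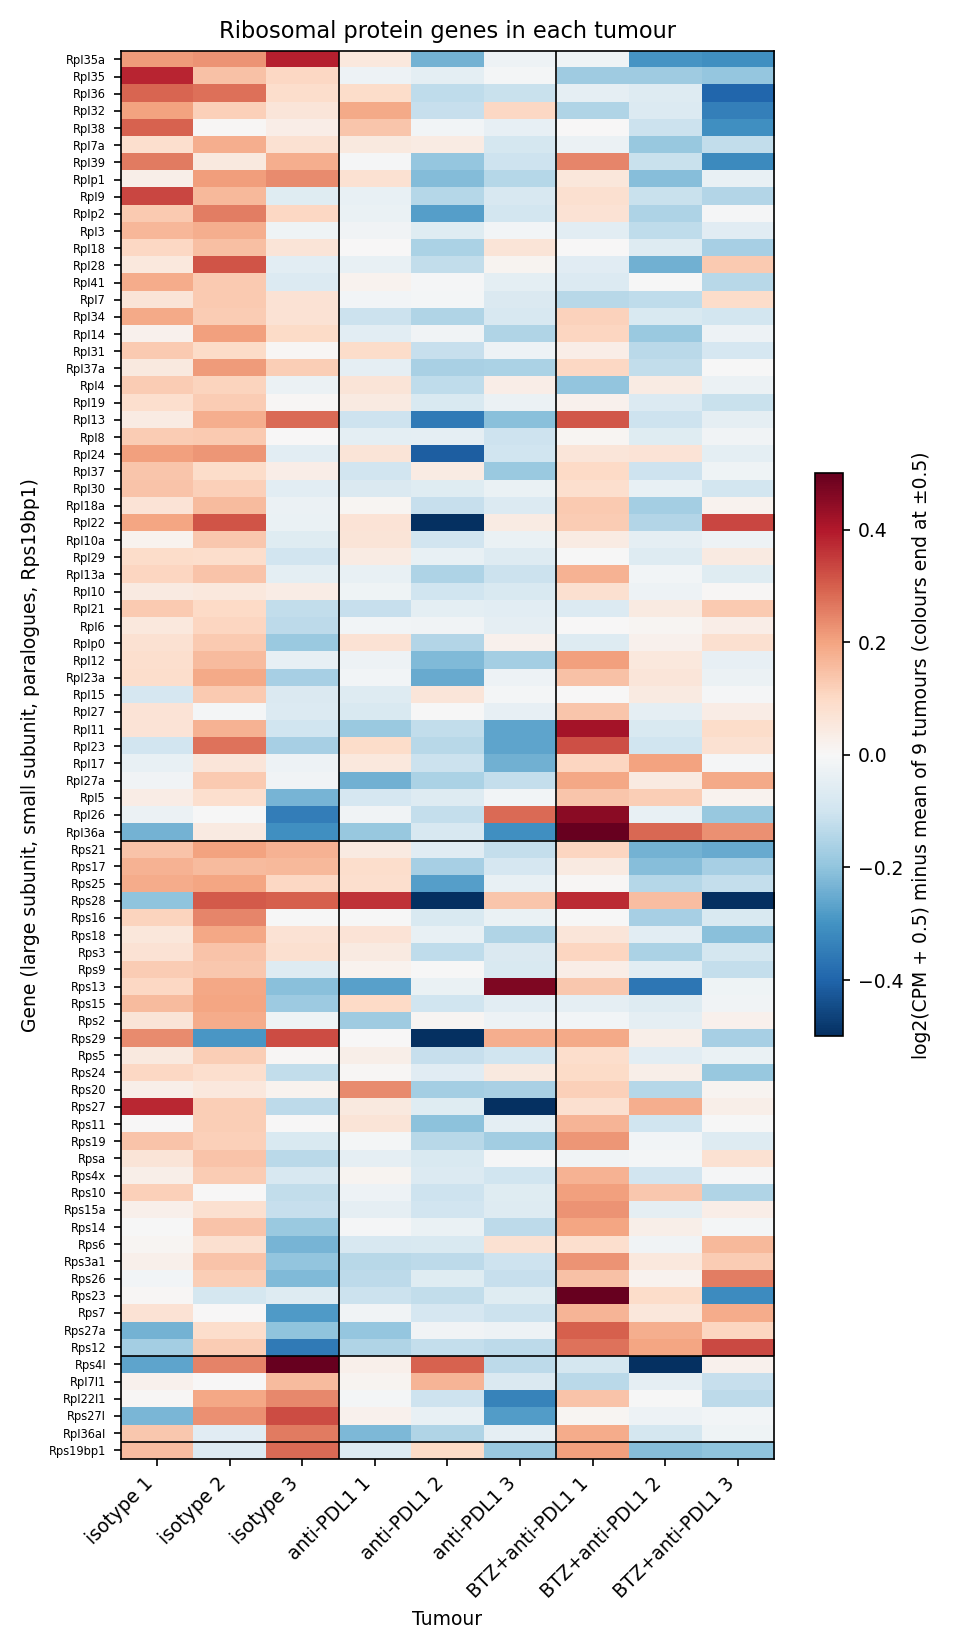
Deviation of log2(CPM + 0.5) from the mean of the 9 tumours for 82 of the 84 genes (Rpl3l and 1 other not drawn), with colours ending at 0.5 on either side and genes ordered within class by the difference between BTZ+anti-PDL1 and isotype. Most genes are red in isotype replicates 1 and 2 and pale blue in anti-PDL1 replicates 2 and 3, while anti-PDL1 replicate 1 is mixed. BTZ+anti-PDL1 replicate 1 is the highest tumour for 22 of the 84 genes, and a block from Rpl36a and Rps12 is red in the BTZ+anti-PDL1 tumours.

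Blocking PDL1 alone went with slightly lower values of nearly all ribosomal protein genes, none of which passed the test. In the anti-PDL1 against the isotype tumours 79 of the 84 genes were lower and 5 higher (51% of all genes tested were lower and 49% higher), and the median log2 fold change was -0.13, or 0.916-fold, against -0.0034 over all genes. edgeR called 0 of the 84 at an adjusted p under 0.05 (0.0138% of all genes tested), and the smallest adjusted p was 0.763. DESeq2 called 0 of them too (0.098% of all genes it tested). At an unadjusted p under 0.05 there were 15 lower and 0 higher (3.34% and 3.01% of all genes), and in 21 genes all 3 anti-PDL1 tumours lay below all 3 isotype tumours, with 0 above (6.61% and 6.08%). Large-subunit genes were lower in 44 of 46 (median -0.13), small-subunit genes in 28 of 31 (-0.088) and paralogues in 6 of 6 (-0.24). The median was -0.082 without isotype replicate 2, with 68 of 84 lower, and it ran from -0.16 to -0.10 without any other tumour. With the 3 most muscle-rich tumours left out, 1 per group, it was -0.18 (77 of 83 lower). Red blood cell markers were apart between these groups too, as given above.

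Of the stalk proteins, which recruit the elongation factors, Rplp1 and Rplp2 had more negative fold changes than Rplp0, a contrast that was not tested. Rplp2 had 348, 380 and 342 CPM in the isotype tumours against 311, 263 and 298 after anti-PDL1, with no overlap. On the log2 scale the difference was -0.30 ± 0.088 (SE, adjusted p = 0.763 by edgeR). Rplp1 had -0.25 ± 0.10 with overlapping groups, and Rplp0 had -0.029 ± 0.10. Rplp0, often used as a reference gene, thus lay within its error of no change.

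Among large-subunit genes Rpl34 had the smallest p. It had 127, 122 and 117 CPM in the isotype tumours against 103, 99.97 and 105 after anti-PDL1, again with no overlap (-0.25 ± 0.071, edgeR adjusted p = 0.763). Rpl35a, one of the genes mutated in Diamond-Blackfan anaemia, had 102, 103 and 115 CPM against 91.3, 74.6 and 86.4 (-0.34 ± 0.10), and every anti-PDL1 tumour was below every isotype tumour. Rpl13 had 52.4, 58.0 and 62.1 CPM against 47.5, 39.8 and 44.1 (-0.39 ± 0.12), also without overlap. Rpl22 had -0.37 ± 0.25 and Rps27 -0.42 ± 0.30, both with overlapping groups. With Rps27rt added, the value of Rps27 was -0.11 ± 0.10.

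The genes on the higher side overlapped between groups. Rpl26, which binds the p53 message, had 489, 498 and 392 CPM in the isotype tumours against 493, 460 and 607 after anti-PDL1 (0.18 ± 0.18). Rps13 had 0.053 ± 0.22, Rps27a, made as a fusion with ubiquitin, 0.033 ± 0.10 and Rps6 0.018 ± 0.12. Of these 4 only Rpl26 kept its sign when single tumours were left out, and Rps13 was -0.20 without anti-PDL1 replicate 3. Elsewhere in the fixed panel, Rpl3 had -0.14 ± 0.071, Rps3 at the message entry -0.15 ± 0.085, Rpl10, a late-joining subunit, -0.11 ± 0.058, Rpl13a -0.17 ± 0.086, Rps19 -0.17 ± 0.094, Rps14 -0.047 ± 0.096 and Rpsa -0.072 ± 0.085. Of the paralogues Rpl22l1 had -0.30 ± 0.12, Rpl36al -0.26 ± 0.10 and the p53 target Rps27l -0.22 ± 0.14.

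Adding BTZ to the antibody went with small shifts in both directions. In the BTZ+anti-PDL1 against the anti-PDL1 tumours 58 genes were higher and 26 lower (50.8% of all genes were higher and 49.2% lower), and their median was 0.056 on the log2 scale (1.04-fold) against 0.0030 over all genes. edgeR called 0 of 84 (0.0138% of all genes tested), the smallest adjusted p being 0.606, and DESeq2 called 0 (0.461% of all genes it tested). At an unadjusted p under 0.05 there were 10 higher and 1 lower (3.15% and 2.67% of all genes), and the groups did not overlap for 10 higher and 1 lower (7.33% and 6.99%). The median leaned on BTZ+anti-PDL1 replicate 1, without which it was 0.013 (37 of 84 lower), and it was 0.095 without replicate 2 of that group. It was 0.035 with the 3 most muscle-rich tumours left out. Fibroblast and endothelial markers, as given above, were apart between these groups. This comparison shares the anti-PDL1 tumours with the first, and the third shares its groups with both.

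Genes on the higher side included Rpl36a, a protein of the E site where spent tRNA leaves. It had 18.2, 15.01 and 14.4 CPM with BTZ against 10.7, 11.5 and 9.79 without, with no overlap (0.58 ± 0.14, edgeR adjusted p = 0.606). Rpl27a had 50.1, 45.1 and 49.9 CPM against 37.0, 39.1 and 40.3 (0.32 ± 0.079, edgeR adjusted p = 0.606), and Rps12, at the beak of the small subunit, 85.1, 80.8 and 88.6 against 63.3, 64.7 and 64.2 (0.40 ± 0.11). In all 3 genes every BTZ+anti-PDL1 tumour was above every anti-PDL1 tumour. Rps27a had 65.8, 60.6 and 57.6 CPM against 46.7, 52.8 and 52.5 (0.28 ± 0.10), also without overlap. Rpl11 had 0.36 ± 0.15, a value that was 0.054 ± 0.12 with the counts of its copies added, and Rps27 had 0.37 ± 0.30 and 0.062 ± 0.10 in the same way.

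**Figure D4:**
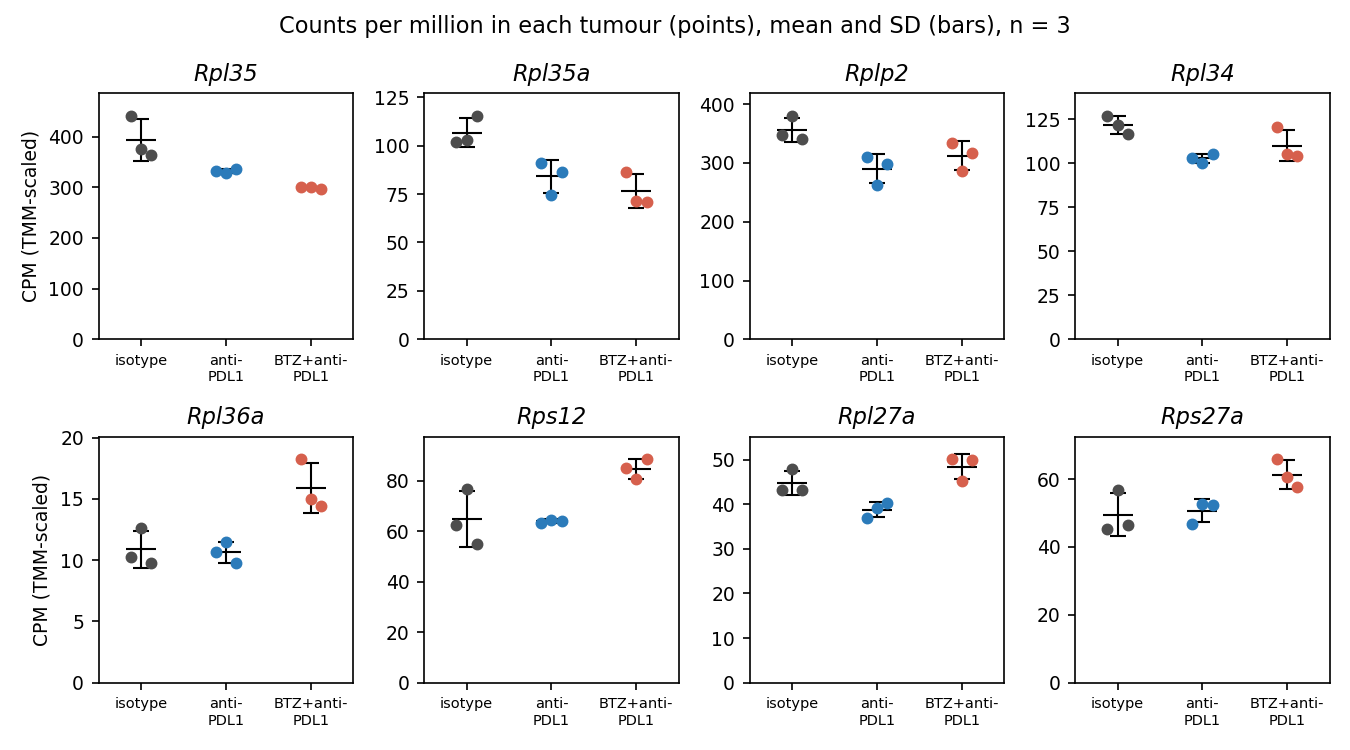
CPM in each tumour (points) with mean and SD (bars, n = 3) for 8 ribosomal protein genes, the axes starting at 0. Rpl35 is highest with isotype, lower with anti-PDL1 and lowest with BTZ+anti-PDL1, with no overlap, and Rpl36a, Rps12 and Rps27a are highest in the BTZ+anti-PDL1 tumours.

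On the lower side Rpl32 had 645, 682 and 565 CPM with BTZ against 815, 661 and 770 without (-0.25 ± 0.099), and the groups overlapped. Rpl35 had 300, 300 and 296 CPM against 333, 328 and 336, with no overlap (-0.15 ± 0.077). Rpl38, known for its part in translating Hox messages, had -0.16 ± 0.10 and Rps13 -0.17 ± 0.22. The value of Rps13 turned to 0.085 without anti-PDL1 replicate 3.

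The combination against the isotype control gave the smallest p values of these genes. In the BTZ+anti-PDL1 tumours 61 of 84 genes were lower and 23 higher (50.3% of all genes were lower and 49.7% higher), and their median was -0.097 on the log2 scale (0.935-fold) against -0.0011 over all genes. edgeR called 0 of 84 (0.00689% of all genes tested) with a smallest adjusted p of 0.229, whereas DESeq2 called 2, Rpl35 and Rpl35a (0.732% of all genes it tested). At an unadjusted p under 0.05 there were 12 lower and 3 higher (4.18% and 4.42% of all genes), and without overlap 13 lower and 3 higher (6.03% and 6.96%). Of the large subunit 33 of 46 were lower (median -0.11), of the small subunit 21 of 31 (-0.041). The median was -0.063 without isotype replicate 1, -0.052 without isotype replicate 2 and -0.17 with the 3 most muscle-rich tumours left out (73 of 83 lower).

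**Figure D5:**
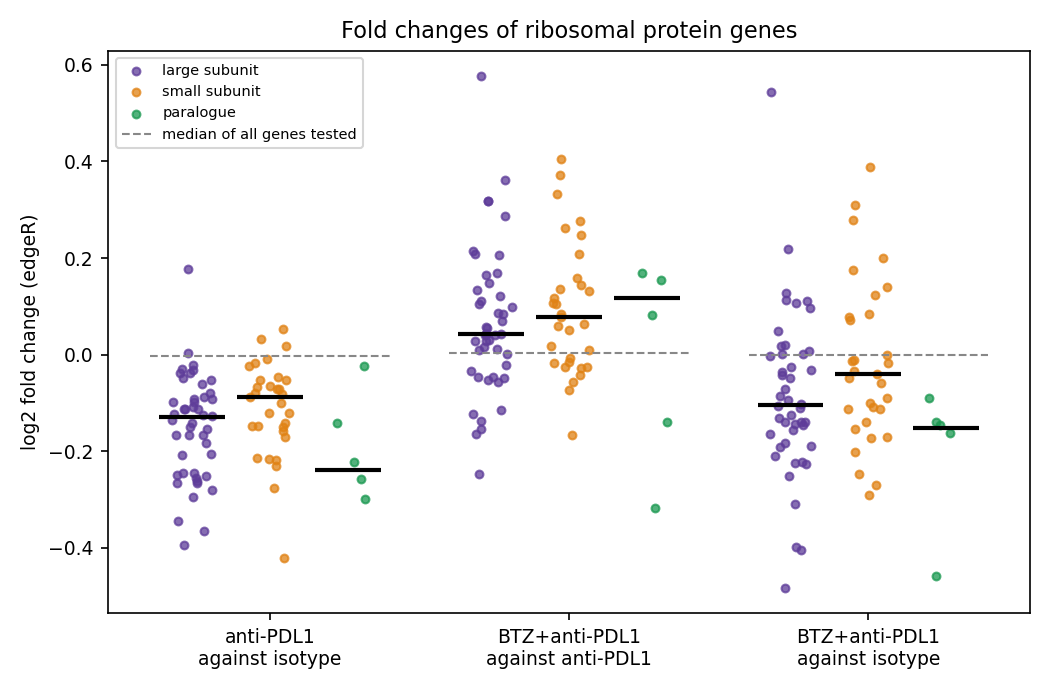
log2 fold change of each gene in the 3 comparisons, by class (Rpl3l and Rps19bp1 not drawn). Black bars are class medians, those of paralogues including Rpl3l, and the dashed line is the median of all genes tested. The large-subunit median is -0.13, 0.043 and -0.11 from left to right.

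Rpl35 had 441, 375 and 364 CPM in the isotype tumours and 300, 300 and 296 in the BTZ+anti-PDL1 tumours. The 3 groups did not overlap in any pair, and its log2 fold change was -0.40 ± 0.077 (edgeR adjusted p = 0.229, and DESeq2 adjusted p = 0.0015). Its copy Gm2000, which differs at the 1 base shown above, had 286, 273 and 245 CPM in the isotype and 259, 247 and 229 in the BTZ+anti-PDL1 tumours, with overlap. Of the reads on the pair, 59.4% fell on Rpl35 in the isotype and 54.9% in the BTZ+anti-PDL1 tumours, and with all its copies added the fold change was -0.28 ± 0.075 (adjusted p = 0.461). Rpl35a had 86.5, 71.6 and 71.0 CPM with the combination (-0.48 ± 0.10, edgeR adjusted p = 0.308, DESeq2 adjusted p = 0.012), every tumour below the isotype ones. Rpl36 had -0.40 ± 0.15 and Rpl32 -0.31 ± 0.10, both without overlap.

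Higher than in the isotype tumours without overlap were Rpl36a (isotype 10.3, 12.6 and 9.78 CPM, 0.54 ± 0.14, adjusted p = 0.436), Rps12 (62.5, 76.9 and 55.0 CPM, 0.39 ± 0.11) and Rps27a (45.3, 56.8 and 46.4 CPM, 0.31 ± 0.10). These 3 are the whole of the higher, non-overlapping set. With their copies added Rpl36a had 0.50 ± 0.12 and Rps12 had 0.24 ± 0.10. Rps23 had 0.28 ± 0.25 on values of 6.81, 4.43 and 3.23 CPM, and it was -0.054 without BTZ+anti-PDL1 replicate 1. Rplp0 had 0.00033 ± 0.10, and Rpl5 had 0.13 ± 0.086, or -0.034 ± 0.093 with Gm15500 and its other copies added.

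The familiar members Rps6, Rps19, Rps14, Rpsa and Rpl3 overlapped between groups, except for Rpl3 with the combination against isotype. Rps6 had 15.3, 16.1 and 12.9 CPM with isotype, 14.4, 14.4 and 16.1 with anti-PDL1 and 16.2, 15.01 and 17.1 with the combination, and the groups overlapped in each pair (0.12 ± 0.12 for the combination against isotype). Rps19, the gene most often mutated in Diamond-Blackfan anaemia, had 235, 231 and 202, then 212, 194 and 189, then 248.2, 211 and 204 CPM in the same order, also with overlap. Rps14, of the small-subunit platform and lost in the 5q- syndrome, had 744, 821 and 654, then 741, 727 and 680, then 854, 759 and 739 CPM. BTZ+anti-PDL1 replicate 1 was the highest tumour for these last 2 genes. Rpsa had 2567, 2712 and 2237, then 2376, 2330 and 2445, then 2427, 2437 and 2585 CPM, with overlap throughout and isotype replicate 3 the lowest tumour. Rpl3, which lines the peptidyl transferase centre, had 690, 699 and 607 CPM with isotype and 594, 564 and 592 with the combination, where every tumour was below the isotype ones (-0.19 ± 0.071).

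Paralogues replace or accompany a subunit protein in some tissues, and all 6 had negative values in both treated groups against isotype. The transcript used here for Rps4l was not annotated as coding, and the isotype level of Rpl3l came from replicate 3 alone. Rpl22l1, the paralogue of Rpl22, had 26.5, 30.2 and 31.2 CPM with isotype, 26.2, 24.5 and 20.8 with anti-PDL1 and 29.1, 26.3 and 24.0 with the combination. Only its first 2 groups were apart from each other. Rps27l had 65.4, 89.98 and 96.3, then 77.9, 74.8 and 63.1, then 77.1, 75.3 and 75.9 CPM, with its 2 highest values in isotype tumours and overlap in each pair. Its parent Rps27 had 2.52, 2.03 and 1.62 CPM in the isotype tumours, and Rps27rt, with the same coding sequence, 236, 251 and 219 CPM. The level of Rps27 beside Rps27l is thus uncertain. Rpl36al had 104, 91.3 and 114, then 81.2, 85.5 and 92.1, then 108, 89.4 and 93.6 CPM, overlapping in each pair. Rpl7l1 had -0.16 ± 0.078 with the combination against isotype, without overlap, and Rps4l, at 2.03 to 5.02 CPM over the 9 tumours, had -0.46 ± 0.29. Rps19bp1, the partner of Rps19 that is no subunit, had -0.18 ± 0.15 and -0.19 ± 0.15 in the anti-PDL1 and combined groups against isotype.

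The retrogene Rpl37rt was lower in both treated groups. It had 602, 607 and 600 CPM with isotype, 549, 496 and 502 with anti-PDL1 and 487, 444 and 462 in the BTZ+anti-PDL1 tumours, with no overlap between any 2 groups. The log2 fold change of the combination against isotype was -0.38 ± 0.067 (edgeR adjusted p = 0.173), and those of the other comparisons were -0.23 ± 0.067 and -0.15 ± 0.067. Its parent Rpl37 had -0.095 ± 0.079 against isotype, and 26.3% to 31.5% of the reads on the pair were on Rpl37. With Rpl37rt added, Rpl37 had -0.30 ± 0.067 for the combination against isotype (edgeR adjusted p = 0.317). Rps27rt had -0.047 ± 0.10. Among the other copies Gm10260, of Rps18 (both chosen after their values were seen), had 148, 133 and 143 CPM with isotype, 140, 111 and 140 with anti-PDL1 and 82.8, 93.8 and 94.0 in the BTZ+anti-PDL1 tumours (-0.65 ± 0.10 against isotype, edgeR adjusted p = 0.152). Rps18 itself had -0.17 ± 0.087, and with its copies added -0.33 ± 0.069 (edgeR adjusted p = 0.303).

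With the counts of copies added to their genes, the counts of lower genes were 79, 29 and 66 of 84 in the 3 comparisons, and the medians were -0.11, 0.043 and -0.090. edgeR then called 0 of the 84 in each comparison. Separately, 15 of the 84 loci overlapped another gene with at least 90 counts, in 14 cases one on the opposite strand (for Rpl35 the genes Arpc5l and Wdr38), and no strand setting of the counting is given in the sources used here.

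Other genes of protein synthesis are given for reference, without a test of likeness to the cytosolic genes. The 77 mitochondrial ribosomal proteins, encoded in the nucleus for the separate ribosome of mitochondria, were lower in 72 with anti-PDL1 against isotype (median -0.13), higher in 60 with BTZ added (0.056) and lower in 56 with the combination against isotype (-0.066). Mrps21 had -0.44 ± 0.14 and 0.33 ± 0.14 in the first 2 comparisons. Of 70 ribosome assembly genes 62, 35 and 60 were lower (medians -0.097, -0.00044 and -0.10), with the snoRNP protein Rrp9 at -0.32 ± 0.094 in the first and the rRNA methyltransferase Fbl at -0.23 ± 0.082 in the third. Of 20 translation factor genes with pyrimidine-tract messages 17, 6 and 14 were lower (-0.071, 0.035 and -0.033), Eef1d having -0.42 ± 0.11 in the first. Both edgeR and DESeq2 called 0 genes of these lists in each comparison. Over all genes tested, edgeR called 0.0138%, 0.0138% and 0.00689%, and DESeq2 called 0.098%, 0.461% and 0.732%. The share of all genes that were lower was 51%, 49.2% and 50.3%. At an unadjusted p under 0.05 edgeR had 12, 0 and 6 lower mitochondrial ribosomal protein genes and 0, 3 and 0 higher ones, 8, 0 and 6 lower assembly genes, and 3, 0 and 2 lower translation factor genes. Over all genes the share was 3.34%, 2.67% and 4.18% lower and 3.01%, 3.15% and 4.42% higher, against 15.6%, 0% and 7.79% lower for the mitochondrial ribosomal proteins, 11.4%, 0% and 8.57% for assembly and 15%, 0% and 10% for translation factors.

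Regulators of ribosome production and its surveillance were looked at last. Of 21 genes of MYC and mTORC1 control 11, 13 and 12 were lower (medians -0.0076, -0.014 and -0.021). Myc, the transcription factor that drives ribosome production, had -0.33 ± 0.16 with anti-PDL1, and the translation repressor Eif4ebp1 -0.22 ± 0.089 and, with the combination, -0.27 ± 0.089. Of 15 genes that watch over stalled ribosomes 9, 7 and 11 were lower, Hbs1l having -0.20 ± 0.087 and Usp10 -0.30 ± 0.13 in the first and second comparison. Of the ribosomal proteins outside the naming rule, Fau had -0.14 ± 0.097 and Rack1 (listed as Gnb2l1) 0.022 ± 0.098 with anti-PDL1 against isotype. edgeR and DESeq2 called 0 genes of these 3 lists too, and the shares called and lower over all genes are those given above. At an unadjusted p under 0.05 edgeR had 2, 0 and 3 lower genes of MYC and mTORC1 control, 2, 1 and 0 lower surveillance genes (9.52%, 0% and 14.3%, and 13.3%, 6.67% and 0% of the lists, against 3.34%, 2.67% and 4.18% of all genes) and 0 of the ribosomal proteins outside the naming rule.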

How the data were processed

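RNA from 9 tumours was sequenced (MJzol extraction, VAHTS Universal V6 library kit, per the labels' protocols). Per the file headers, the table holds counts per gene, which are whole numbers without scaling. It also holds FPKM, which the authors computed from the count, a length for each gene and the column total. Per the submitters' processing notes HISAT2 2.0.4, StringTie 1.3.3b and mm10 were used, with no role given, and the counting tool, annotation release and strand setting are not given in the sources used here.

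Groups came from the treatment label. For the 3 comparisons edgeR 4.0.16 was run in R 4.3.3 (quasi-likelihood F test, robust, TMM scaling, filterByExpr with a minimum count of 10, 3 group means over 9 tumours, 6 residual degrees of freedom), with Benjamini-Hochberg adjustment over 14506 genes and a threshold of 0.05. The SE was derived from the fold change and F. The step was tested on simulated data. CPM are TMM-scaled. Each tumour is from its own mouse as far as the labels show. Copies were found with BLAST 2.17.0 against GENCODE M21 transcripts (90% identity, 70% coverage), and only rows named Gm and a number, -ps or rt were counted, with 6 others left out. Alternatives used RLE scaling, DESeq2 1.42.0, limma 3.58.1 on log2(FPKM + 1) or log2(FPKM + 0.1), other filters and left-out tumours.

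Named genes were the 4 highest and lowest and the 2 smallest p per direction in each comparison, a fixed panel, retrogenes, the extremes of FPKM and the 3 smallest p of each other list. The members and lists were chosen with earlier results of these data known, so no list was tested. Some genes are not reported by name here.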

Additional observations from a re-analysis of the deposited data

How the results depend on the processing

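The count of genes called by edgeR over all genes (2, 2 and 1 in the 3 comparisons, in the order of the report) was small and moved with most settings. In the first it was 15 with DESeq2, 0 without the 3 tumours richest in muscle markers and 1 to 4 with 1 tumour left out. In the second it was 61 with DESeq2, 4 without a filter, 12 with only the 6 tumours compared, 0 without the muscle-rich tumours and 1 to 7 with 1 tumour left out. In the third it was 109 with DESeq2, 2 with TMM without the members, 6 without a filter, 3 with limma on log2 FPKM with either pseudocount, 0 on FPKM without a filter, with only the 6 tumours or without the muscle-rich ones, and 0 to 20 with 1 tumour left out. The cause was not tested. The number of ribosomal protein genes called was 0 in each setting but DESeq2 on the third comparison (2). With the replicate number as a block the counts of genes called were 1, 1 and 0, and 0 ribosomal protein genes. Same-numbered tumours did not all deviate together (correlations of -0.434 to 0.393). No pairing by number was evident, but 3 tumours a group are too few to exclude one.

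The direction of the median of the 84 genes and of the ratios of shares was kept in all settings run. Single genes near 0 turned. In the first comparison Rps13 ran from -0.20 (anti-PDL1 replicate 3 left out) to 0.21 and was -0.061 with isotype replicate 3 left out. Rps27a ran from -0.021 to 0.15, with values below 0 when isotype replicate 1 or 3 (-0.011) was left out. Rps6 ran from -0.071 (isotype replicate 3) to 0.090, with -0.037 when anti-PDL1 replicate 3 was left out and -0.043 for the muscle-rich tumours. In the second Rps13 ran from -0.32 to 0.085 (anti-PDL1 replicate 3), and in the third Rps23 from -0.054 (BTZ+anti-PDL1 replicate 1) to 0.50, with -0.064 when the muscle-rich tumours were left out. The addition of copies was chosen after seeing the data. With 3 tumours a group the median SE of these genes was 0.094 on the log2 scale, so single differences of the size of the medians were not detectable.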
